A study of Mus musculus with 4 samples.

Results

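Knock-down of TET2 was examined here on top of the JAK2V617F mutation, in LSK cells, the lineage-negative, c-Kit-positive, Sca-1-positive fraction of mouse bone marrow that holds stem cells and multipotent progenitors. The double mutant array was compared with the JAK2V617F array, and a gene entered the comparison when at least 1 of its probes gave a signal well over background in 1 or both of these arrays. This left 15014 of the 22624 genes named on the array, read by 20224 of the 33983 probes that passed; the other probes carried no gene name. The series holds 4 one-colour arrays, 1 per group: double mutant cells (TET2 knock-down together with the JAK2V617F transgene) collected 13 weeks after transplantation, JAK2V617F cells at 16 weeks, TET2KD cells (TET2 knock-down alone) at 10 weeks and WT cells at 16 weeks. Every array came from lethally irradiated recipients, 5 mice per genotype in the design text, that had received E14.5 fetal liver cells of that genotype on a C57B6 background. The sources used here give neither the promoter of the JAK2V617F transgene, nor how TET2 was knocked down, nor whether the mice of a genotype were pooled. Because each group is a single array, no replicate error can be given and no test between groups was made, and genotype cannot be told apart from the week of collection, which was earlier for both knock-down arrays.

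TET2 is an enzyme that oxidises 5-methylcytosine and so takes part in the removal of DNA methylation, and its gene is often lost or mutated in blood cancers. JAK2 is the kinase that passes signals from the receptors for erythropoietin and other cytokines to the STAT transcription factors, and the V617F form signals without the ligand. The mutations of both genes occur together in myeloproliferative neoplasms, disorders in which stem cells overproduce mature red cells, platelets or granulocytes.

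The 3 Tet2 probes did not give the same answer. All lie on the minus strand of chromosome 3 (mm9), and the first 30 bases of each 60-base probe, and of the Jak2 probe on the plus strand of chromosome 19, are shown to identify what was measured.
Tet2, chr3:133126751-133126810: gcttacttcctgagattttggctttgttta
Tet2, chr3:133126905-133126964: acgcacagtgatgtatagttcactttacaa
Tet2, chr3:133176421-133176479: gaaaatccgaagaaccccttgtgcctttaa
Jak2, chr19:29387487-29387546: cgtgctgctccctcttagacaatgtcatgt
Of the 3 Tet2 probes, the files place the first at base 9011 of the Tet2 transcript and the next at base 8857, close together, and set the remaining probe on another transcript. All values below are in units of the array's own 75th percentile signal. The first probe read 2.57 units in the double mutant array and 4.4 in the JAK2V617F array, so the knock-down array held 58.4% of the JAK2V617F signal. On the same probe TET2KD read 2.35 units and WT 4.17, or 56.3%. The next probe read 1.35 units in the double mutant array and 1.63 in the JAK2V617F array (82.6%), against 0.608 in TET2KD and 2.23 in WT (27.3%). Both nearby probes were thus lower in the knock-down array on both backgrounds, and the neighbouring probe differed more in cells without JAK2V617F. The probe on the other transcript went the other way and was well above background in the double mutant array but not in the JAK2V617F array, at 0.293 units, at least 2.72-fold higher. The Jak2 probe read 1.14 units in the double mutant array and 1.03 in the JAK2V617F array, with 1.18 in TET2KD and 1.07 in WT, and so was nearly level across the arrays with and without the transgene. It is not known here whether the transgene carries the sequence of this probe.

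The 2 arrays were alike in quality. The 75th percentile signal was 143.5 in the double mutant array and 130.3 in the JAK2V617F array, 54.1% and 54.7% of spots were well above background, and no spot was saturated. Spots of the same probe repeated across an array had an SD of 0.159 in the double mutant array and 0.157 in the JAK2V617F array on the log2 scale. The spread between the arrays was wider than this for all but the brightest probes. Among probes with a mean below 0.25 units the SD of the log2 difference was 0.63 and 12.1% of probes were at least 2-fold apart. It was widest from 0.5 to 1 unit, with an SD of 1.16 and 31.0% of probes 2-fold apart, and narrowed above that. Between 8 and 64 units the SD was 0.38 and 2.88% were 2-fold apart, and above 64 units the SD was 0.15 and 0.105% were. A 2-fold difference was therefore ordinary for probes below 8 units and rare for brighter ones.

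**Figure D1:**
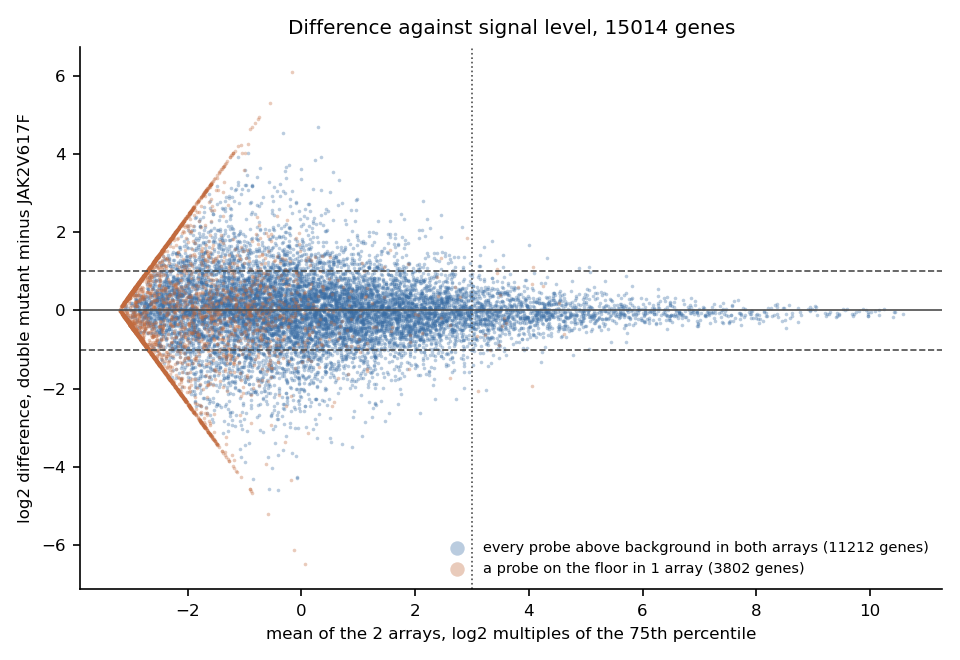
Difference between the double mutant and JAK2V617F arrays (vertical axis, log2) against the mean signal of the 2 arrays (horizontal axis, log2 multiples of the 75th percentile) for 15014 genes. Blue points had every probe above background in both arrays and orange points had a probe on the floor in 1 array; dashed lines mark 2-fold, the dotted line marks 8 units, and the cloud narrows to the right.

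At least 2-fold higher signals were found for 1841 genes in the double mutant array (12.3% of 15014) and at least 2-fold lower signals for 1913 (12.7%), with a median difference of -0.02. These 2 shares are the background for the counts of list members given below. Among the 11212 genes above background on every probe in both arrays they were 9.54% and 9.92%. The genes on either side of the 2-fold limit differed little: Ebna1bp2 was the last inside it and had the same rounded log2 difference, 1.0, as the gene just outside, and Rilpl1, the last inside on the lower side, stood at -1.001. Of the other genes compared, 1401 were not well above background in the double mutant array and 1262 in the JAK2V617F array, and the remaining 1139 had some probes on the floor. For these the floor is the lowest signal well above background, 0.109 units in the double mutant array and 0.108 units in the JAK2V617F array, and a fold against it is given as "at least". Probes of 1 gene agreed when they lay close together: of 69 pairs less than 100 bases apart whose upstream probe was 2-fold apart, the other probe had the same direction in 89.9%. At 500 bases or more it was 51.9% of 821 pairs, so a difference on 1 probe said little about a distant probe of the same gene.

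The cells carried the RNA of the gate. Kit, the receptor for stem cell factor, read 5.17 units in the double mutant array and 7.61 in the JAK2V617F array. Ly6a, which encodes Sca-1, read 6.54 and 9.99 units, double mutant first. Cd34, a surface protein of progenitors, read 19.7 units in the double mutant array and 26.5 in the JAK2V617F array. All 3 were lower in the double mutant array by less than 2-fold. Flt3, the receptor that rises as multipotent progenitors take on lymphoid potential, went the other way, with 1.35 units in the double mutant array and 0.56 in the JAK2V617F array, where 1 of its 3 probes was on the floor. Of the antigens against which the gate selects, Itgam (CD11b) read 5.52 units in the double mutant array and 4.69 in the JAK2V617F array, and Ly6g (Gr-1) read 0.236 and 0.34 units in the same order. None of the 5 lineage antigens compared was 2-fold apart, and Cd8a was not well above background in either array. Of the 13 gate and SLAM family genes compared, 1 was at least 2-fold higher and 4 were at least 2-fold lower. These were 7.69% and 30.8%, beside 12.3% and 12.7% of all genes.

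Genes of the mature neutrophil were the group with the highest median among the 47 lists, 1.24 on the log2 scale over 24 of the 28 listed genes. This rank was lost to the eosinophil list with normexp background correction (0.79, against 0.86 for eosinophil genes) and to it and other lists with no filter on dim probes (0.44) and over probes above background on both arrays (0.30). Of these 24, 13 were at least 2-fold higher in the double mutant array and 2 at least 2-fold lower, beside 12.3% and 12.7% of all genes. Their summed signal without the receptor gene Csf3r was 101 units in the double mutant array and 54.3 units in the JAK2V617F array. Of the 24, 6 entered through the double mutant array only, being not well above background in the JAK2V617F array, and so could only come out higher. Of the 18 measured in both arrays, 7 were at least 2-fold higher and 2 at least 2-fold lower, beside 9.54% and 9.92% of all genes so measured. Their median was 0.30, and over the 15 that reached the 75th percentile in 1 array it was 1.22. Lcn2, an iron-binding protein of the secondary granules, read 11.7 units in the double mutant array and 1.67 in the JAK2V617F array. Wfdc21, a small secreted protein of the whey acidic protein family, read 2.95 units in the double mutant array and 0.232 in the JAK2V617F array, 12.7-fold higher. S100a9 and its partner S100a8 form the calprotectin that fills neutrophil cytoplasm. S100a9 read 31.9 units in the double mutant array and 12.6 in the JAK2V617F array, 2.53-fold higher, and was far above background in both. S100a8 read 9.15 and 3.92 units in the same order, 2.33-fold higher. Genes that were not well above background in the JAK2V617F array included Ltf (lactoferrin, 1.43 units in the double mutant array), Retnlg (0.81 units), the collagenase gene Mmp8 (0.946 units) and Lrg1 (0.984 units). The difference was at least 7.53-fold for Retnlg, at least 8.79-fold for Mmp8 and at least 8.93-fold for Lrg1. Of the 24, 17 had a positive difference and 9 were less than 2-fold apart either way. At least 2-fold lower were Pglyrp1 and Cd177. Pglyrp1, a bactericidal granule protein, read 1.57 units in the double mutant array and 3.77 in the JAK2V617F array. The surface protein gene Cd177 read 0.173 and 0.356 units. These 2 genes were chosen after their values were seen.

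Genes of the primary granules, which are filled earlier, at the promyelocyte stage, were mostly level. The list of genes for primary granules and granulocyte-monocyte progenitors had 19 members compared, of which 3 were higher by 2-fold or more and none was lower by as much, and the median was 0.02. Mpo, myeloperoxidase, read 58.5 units in the double mutant array and 51.1 in the JAK2V617F array, and its 2 probes differed by 0.14 and 0.25 on the log2 scale. Elane, neutrophil elastase, read 9.22 and 7.77 units, and Prtn3, proteinase 3, read 12.7 and 12.6 units, double mutant first in both cases. The 3 genes past 2-fold were Ly86 (4.46 units in the double mutant array and 1.32 in the JAK2V617F array), Igsf6 (5.61 and 2.41) and Cst7 (3.67 and 1.71). Of the transcription factors of this lineage, Cebpa, which opens the granulocyte programme, was lower, with 5.66 units in the double mutant array and 14.1 in the JAK2V617F array, 2.49-fold apart. Cebpe, which is needed for secondary granules, read 0.744 and 0.535 units, less than 2-fold apart. Rara, a retinoic acid receptor, was 10.1-fold higher, with 5.04 units in the double mutant array and 0.497 in the JAK2V617F array. In a bulk sorted sample, more cells of a type and more RNA per cell cannot be told apart, and the part of a few mature cells within the gate in these values was not tested.

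The promoters of 4 neutrophil genes are shown because these genes were higher together and because C/EBP factors act on genes of this kind. Each holds 250 bases before and 50 bases after the RefSeq start site (GRCm38.p6), and capitals mark matches, on either strand, to TTGCNNAA for the C/EBP-type motif, TTCNNNGAA for the STAT-type motif or AGATAA for the motif that factors of the GATA family bind.
Lcn2, minus strand, chr2:32387690-32387989: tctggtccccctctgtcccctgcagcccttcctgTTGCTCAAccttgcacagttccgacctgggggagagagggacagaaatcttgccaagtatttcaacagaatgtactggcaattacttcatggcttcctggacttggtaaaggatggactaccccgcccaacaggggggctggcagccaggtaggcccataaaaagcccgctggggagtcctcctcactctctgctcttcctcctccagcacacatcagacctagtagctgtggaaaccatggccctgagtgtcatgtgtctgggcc
Ltf, plus strand, chr9:111019042-111019341: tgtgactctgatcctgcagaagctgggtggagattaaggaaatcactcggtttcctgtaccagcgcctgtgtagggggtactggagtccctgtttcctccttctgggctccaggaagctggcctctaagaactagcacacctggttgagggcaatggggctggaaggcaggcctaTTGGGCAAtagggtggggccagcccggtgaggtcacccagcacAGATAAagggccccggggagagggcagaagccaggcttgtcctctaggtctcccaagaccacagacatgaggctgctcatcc
S100a9, minus strand, chr3:90695672-90695971: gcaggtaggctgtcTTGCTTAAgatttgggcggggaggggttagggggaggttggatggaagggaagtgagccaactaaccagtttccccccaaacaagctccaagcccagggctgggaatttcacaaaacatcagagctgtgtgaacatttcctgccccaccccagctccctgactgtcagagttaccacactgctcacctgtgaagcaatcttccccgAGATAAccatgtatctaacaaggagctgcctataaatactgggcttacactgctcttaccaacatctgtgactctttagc
S100a8, plus strand, chr3:90668821-90669120: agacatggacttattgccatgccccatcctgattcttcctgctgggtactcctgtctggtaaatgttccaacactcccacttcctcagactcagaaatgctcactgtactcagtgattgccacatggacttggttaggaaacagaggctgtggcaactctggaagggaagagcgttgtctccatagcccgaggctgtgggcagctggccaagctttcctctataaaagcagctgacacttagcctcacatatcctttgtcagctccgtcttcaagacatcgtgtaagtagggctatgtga
Lcn2, Ltf and S100a9 each held 1 C/EBP-type match, Ltf and S100a9 also 1 GATA-type match, and S100a8 held none. Of the 22 neutrophil genes with a promoter in the table, 36.4% held the C/EBP-type motif, 13.6% the STAT-type and 27.3% the GATA-type. Over the 11820 compared genes with a promoter in the table the shares were 10.8%, 8.71% and 9.06% in the same order. Over all 32851 promoters in the table, including those of genes not compared, they were 10.8%, 8.3% and 11.2%. Among all genes at least 2-fold higher, 12.1% held the C/EBP-type motif. Lists that were level or lower also held it often. It was found in 23.5% for primary granules (median difference 0.02), 37.5% for mast cells and basophils (0.21) and 20.8% for stem cells (-0.61). A high share was thus not particular to lists that were higher. A match is a run of letters and says nothing of binding in these cells.

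Eosinophil genes were higher in the double mutant array and lower in the TET2KD array, each against its own control. Of 10 genes compared, 7 were at least 2-fold higher in the double mutant array and none was at least 2-fold lower, and 9 of the 10 had opposite signs on the 2 backgrounds. The median was 1.10 and lay between 0.86 and 1.14 under the other settings. In TET2KD against WT none was at least 2-fold higher and 5 were at least 2-fold lower, with a median of -0.99, beside 15.9% higher and 17.5% lower among the 14341 genes compared there. Prg2, the major basic protein of the eosinophil granule, read 49 units in the double mutant array and 22.6 in the JAK2V617F array, 2.16-fold higher, with 143 in TET2KD and 169 in WT. Epx, eosinophil peroxidase, read 3.0 and 1.41 units in the first pair and 22 and 25.4 in the second. The JAK2V617F array was thus the lowest of the 4 and the WT array the highest, with the double mutant array above JAK2V617F and below TET2KD. The eosinophil-associated ribonucleases showed the same order. Ear1 read 7.71 units in the double mutant array, 2.8 in JAK2V617F, 21.1 in TET2KD and 49.7 in WT. Ear2 read 2.28, 0.827, 8.02 and 18.8 units in that order of arrays, and Ear6 read 1.68, 0.793, 4.05 and 7.8. These ribonuclease genes are near copies of each other, so their probes may share targets and are not separate evidence. The summed signal of the list without Prg2 was 24.7 units in the double mutant array and 12.2 in the JAK2V617F array, against 80.8 in TET2KD and 149 in WT. Il5ra, the receptor subunit for the eosinophil growth factor, stayed between 0.842 and 0.999 units in all 4 arrays, and the surface marker Siglecf read 0.807 units in the double mutant array and 0.789 in JAK2V617F. The promoter of Ear2 is shown as one of this group and holds 1 C/EBP-type match in capitals.
Ear2, plus strand, chr14:44102404-44102703: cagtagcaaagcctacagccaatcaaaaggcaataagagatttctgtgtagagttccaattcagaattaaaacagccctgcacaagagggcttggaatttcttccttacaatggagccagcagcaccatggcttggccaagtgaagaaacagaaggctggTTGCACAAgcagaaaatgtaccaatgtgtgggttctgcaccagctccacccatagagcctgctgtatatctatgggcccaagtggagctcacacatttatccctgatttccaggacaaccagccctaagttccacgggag
Of the 8 eosinophil genes with a promoter in the table, 37.5% held that motif.

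**Figure D2:**
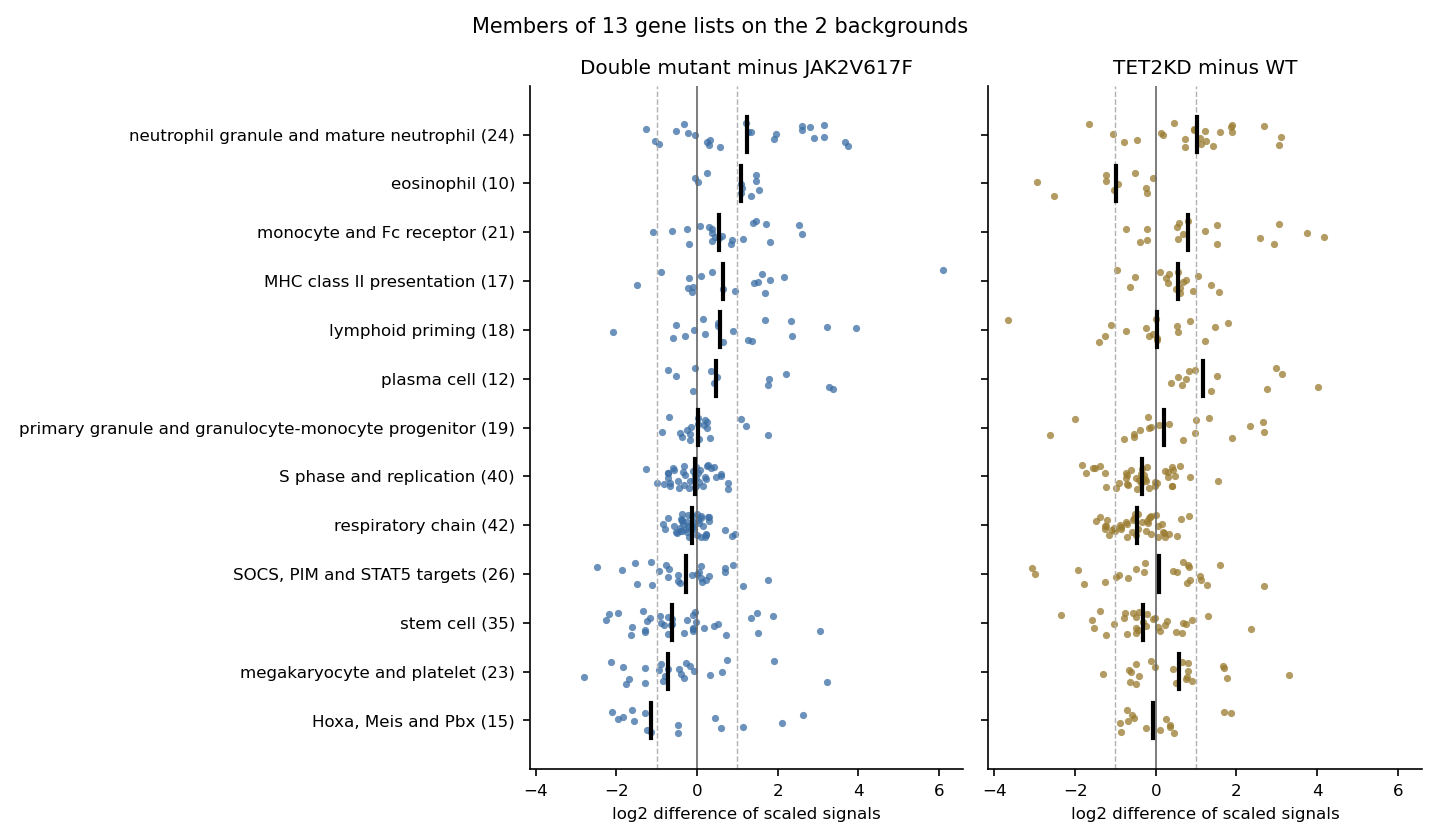
Log2 differences of the members of 13 gene lists (points) with the list median (black bar), in the double mutant minus JAK2V617F (left) and in TET2KD minus WT (right). The number beside each list is its members compared on the left; dashed lines mark 2-fold, and the neutrophil median lies at 1.24 on the left and 1.02 on the right while the eosinophil medians lie at 1.10 and -0.99.

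Monocyte and Fc receptor genes were also higher on balance. Of 21 compared, 7 were at least 2-fold higher and 1 was at least 2-fold lower (33.3% and 4.76%, beside 12.3% and 12.7% of all genes), with a median of 0.54. Fcgr4, an activating receptor for IgG, read 1.86 units in the double mutant array and 0.308 in the JAK2V617F array, 6.05-fold higher. Fcer1g, the signalling chain shared by Fc receptors, was bright and read 8.41 and 3.04 units, 2.76-fold higher. Lyz2, the lysozyme of macrophages and neutrophils, read 2.11 and 0.797 units, 2.64-fold higher. Csf1r, the receptor for the macrophage growth factor M-CSF, read 6.4 and 1.97 units, but its 3 probes ran from about 0 to 3.62 on the log2 scale and did not agree. Irf8, the factor that directs progenitors to monocytes and dendritic cells, read 6.03 units in the double mutant array and 2.88 in the JAK2V617F array, 2.09-fold higher, and was singled out after its value was seen. Tissue macrophage genes did not share this. Of 10 compared, 1 was at least 2-fold higher and 2 were at least 2-fold lower (median -0.09), and 9 more of that list, among them Cd163 and Mrc1, were below background in both arrays.

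Genes of antigen presentation on MHC class II were higher in part. Of 17 compared, 7 were at least 2-fold higher and 1 was at least 2-fold lower. These were 41.2% and 5.88%, beside 12.3% and 12.7% of all genes. The median was 0.64, or 0.37 where only probes above background on both arrays were kept. Cd74, the invariant chain that escorts class II molecules, read 28.8 units in the double mutant array and 8.96 in the JAK2V617F array, 3.21-fold higher. H2-Aa, the alpha chain of I-A, read 9.3 and 3.29 units, 2.83-fold higher. The beta chain gene H2-Ab1 read 17.5 and 9.13 units, just under 2-fold apart on both of its probes, with log2 differences of 0.92 and 0.96. Lgmn, a lysosomal protease that cuts the invariant chain, read 2.32 and 0.521 units, 4.46-fold higher. Ciita, the transactivator of the class II genes, read 4.96 units in the double mutant array and 5.66 in the JAK2V617F array and so did not move with them. H2-DMb1, which encodes a chain of the peptide-loading molecule, was 2.79-fold lower at 0.401 and 1.12 units. The neighbouring copy H2-DMb2 was at least 69-fold higher, with 7.42 units in the double mutant array and no signal well above background in the JAK2V617F array; the 2 genes are near copies, so their probes may not tell them apart. Class I genes were level, with H2-K1 at 38.2 and 37.6 units and B2m at 76.5 and 83 units, while the peptide transporter Tap1 was 5.24-fold lower (0.543 and 2.84 units) and Tap2 3.66-fold lower (1.17 and 4.29 units).

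Lymphoid priming genes were higher in part in the double mutant array, while the B cell and T cell lists had medians near 0. Of 18 compared, 7 were at least 2-fold higher and 1 was at least 2-fold lower, with a median of 0.58. These were 38.9% and 5.56%, beside 12.3% and 12.7% of all genes. Of the 18, 3 were not well above background in the JAK2V617F array and so could only come out higher. Of the 13 measured in both arrays on every probe, 3 were at least 2-fold higher and 1 at least 2-fold lower (median 0.21). The shares of all genes so measured were 9.54% and 9.92%. Satb1, a chromatin organiser that promotes lymphoid fate, read 5.85 units in the double mutant array and 1.82 in the JAK2V617F array, 3.22-fold higher. Mef2c, a transcription factor that favours lymphoid over myeloid fate, read 10.8 and 4.23 units, 2.56-fold higher; this gene and Dntt were chosen after their values were seen. Dntt, which adds bases at antigen receptor joints and marks the earliest lymphoid progenitors, was very bright, with 71 units in the double mutant array and 38.2 in the JAK2V617F array, 1.86-fold higher, against 62.2 in TET2KD and 105 in WT. Rag2, a recombinase subunit, had signal over background in the double mutant array but not in the JAK2V617F array, at 0.554 units. Ltb, the cytokine lymphotoxin beta, was the exception, with 0.277 and 1.17 units, 4.24-fold lower. Of 12 B cell genes, 2 were at least 2-fold higher and 2 at least 2-fold lower (median -0.24), and Pax5, the B lineage factor, read 0.43 units in the double mutant array and 1.28 in the JAK2V617F array. Of 20 T and NK cell genes, 3 were at least 2-fold higher and 4 at least 2-fold lower (median 0.15).

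The plasma cell list had a positive median on both backgrounds. Of 12 compared, 5 were at least 2-fold higher and none at least 2-fold lower in the double mutant array (median 0.46), beside 12.3% and 12.7% of all genes. In TET2KD against WT 6 were at least 2-fold higher and none at least 2-fold lower (median 1.17), beside 15.9% and 17.5% of all genes. At least 2-fold higher on both were 3, while 4 had opposite signs. Below background were 2 members in the double mutant array and 4 in the JAK2V617F array, none in TET2KD and 5 in WT. A member below background in 1 array of a pair could only come out higher in the other array. Of the 6 measured in both the double mutant and JAK2V617F arrays, 2 were at least 2-fold higher and none at least 2-fold lower (median 0.38). The shares of all genes so measured were 9.54% and 9.92%. Jchain, the joining chain of secreted IgA and IgM, read 3.2 units in the double mutant array and 0.31 in the JAK2V617F array, 10.3-fold higher, with 4.63 in TET2KD and 0.687 in WT. Tnfrsf17, which encodes the survival receptor BCMA, read 1.04 units in the double mutant array and was not well above background in the JAK2V617F array, at least 9.67-fold higher, and read 2.01 units in TET2KD. Mzb1, a chaperone of antibody assembly, read 0.5 units in the double mutant array against no signal above background in the JAK2V617F array. The factors Xbp1 (6.53 and 5.16 units) and Prdm1 (9.07 and 6.8 units), which plasma cells share with other cells, differed by less than 2-fold. The part of plasma cells within the sorted fraction in these values was not tested.

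Stem cell genes were lower on balance. Of 35 compared, 5 were at least 2-fold higher and 10 at least 2-fold lower (14.3% and 28.6%, beside 12.3% and 12.7% of all genes), with a median of -0.61, or -0.31 with normexp and -0.28 over probes above background on both arrays. Angpt1, the ligand of the receptor Tie2, read 2.34 units in the double mutant array and 7.31 in the JAK2V617F array, 3.12-fold lower, and 11.4 in TET2KD and 26.7 in WT. Gata2, a transcription factor of stem and mast cells, was among the brighter genes, with 3.99 and 9.42 units, 2.36-fold lower. Esam, an adhesion molecule of stem cells, read 0.236 and 0.713 units, 3.02-fold lower. Other markers hardly differed. Procr, the protein C receptor, read 2.61 units in the double mutant array and 2.82 in the JAK2V617F array, and Hlf, a stem cell transcription factor, read 6.55 and 7.03 units. Tie1, a receptor best known from endothelial cells, was at least 8.24-fold higher, with 0.887 units in the double mutant array.

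The Hoxa, Meis and Pbx genes, transcription factors that keep progenitors in an undifferentiated state, had the lowest median of the 47 lists with the settings used here, -1.14 over 15 genes. Of these, 3 were at least 2-fold higher and 8 at least 2-fold lower in the double mutant array, beside 12.3% and 12.7% of all genes. In TET2KD against WT 2 were at least 2-fold higher and none at least 2-fold lower, with a median of -0.08. The median of -1.14 became -0.39 with normexp, -0.48 over probes above background on both arrays and -0.27 with no filter. In each of these cases, and with the brightest probe per gene (-0.48), 1 or more other lists were lower, such as the megakaryocyte list at -0.70 with no filter. Hoxa9 read 0.949 units in the double mutant array and 2.88 in the JAK2V617F array, with 4.96 in TET2KD and 3.91 in WT, and its 2 probes gave -2.49 and -0.71 on the log2 scale. Meis1, its DNA-binding partner, read 1.14 units in the double mutant array and 4.42 in the JAK2V617F array, with 5.46 in TET2KD and 8.98 in WT. The double mutant array thus held the lowest signal of the 4 arrays for both genes. Pbx4 was 3.58-fold lower (0.264 and 0.945 units), while Pbx2, another member of the same cofactor family, was 4.3-fold higher (1.61 and 0.374 units). The Hoxa genes were divided as well. Hoxa6 was 6.14-fold higher (0.942 and 0.153 units, on 1 probe), the largest difference in the list, and Hoxa2 was at least 2.18-fold higher. Of the 5 Hoxb genes compared, 2 were at least 2-fold lower, and 4, among them Hoxb4, were not well above background in the double mutant array. These 4 entered through the JAK2V617F array only and so could only come out lower. None of the 5 was above background on every probe in both arrays. Of the 12 promoters available for the Hoxa, Meis and Pbx genes, 8.33% held the C/EBP-type motif and none held either of the others.

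The megakaryocyte and platelet list had medians of opposite sign on the 2 backgrounds. Of its 21 members compared on both, 10 had opposite signs, 8 were lower on both and 3 higher on both. Of 23 compared, 2 were at least 2-fold higher and 7 at least 2-fold lower in the double mutant array (median -0.72). These were 8.7% and 30.4%, beside 12.3% and 12.7% of all genes. Below background were 3 in the double mutant array, which could only come out lower, and 2 in the JAK2V617F array. Of the 15 measured in both, 1 was at least 2-fold higher and 5 at least 2-fold lower (median -0.45). In TET2KD against WT, 5 of 22 were at least 2-fold higher and 1 at least 2-fold lower (median 0.57). The shares of all genes there were 15.9% and 17.5%. With normexp the median of the double mutant comparison was -0.29. Pf4, platelet factor 4, read 1.6 units in the double mutant array and 7.04 in the JAK2V617F array, 4.4-fold lower, with 5.04 in TET2KD and 1.55 in WT. P2rx1, an ATP-gated channel of platelets, read 0.19 and 1.31 units, 6.91-fold lower. Itga2b, the integrin chain CD41 that marks megakaryocytes and some stem cells, read 0.181 and 0.584 units, 3.23-fold lower. Gp1ba, a subunit of the receptor for von Willebrand factor, was not well above background in the double mutant array and read 0.389 units in the JAK2V617F array. The 2 genes in the other direction were Gng11, a G protein subunit, with 2.36 and 0.253 units, and the platelet glycoprotein gene Gp5, which had signal over background in the double mutant array but not in the JAK2V617F array at 0.407 units. The promoter of Pf4 is shown because the gene went in opposite directions on the 2 backgrounds, and capitals again mark 1 C/EBP-type and 1 GATA-type match.
Pf4, plus strand, chr5:90772185-90772484: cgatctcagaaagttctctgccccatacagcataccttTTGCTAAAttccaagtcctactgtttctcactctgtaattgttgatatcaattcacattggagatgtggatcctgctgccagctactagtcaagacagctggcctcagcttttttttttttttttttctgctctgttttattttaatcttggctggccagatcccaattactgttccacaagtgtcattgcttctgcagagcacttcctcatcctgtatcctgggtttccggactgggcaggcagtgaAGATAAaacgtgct

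Red cell genes were divided. Of 20 globin and red cell membrane genes, 5 were at least 2-fold higher and 2 at least 2-fold lower, with a median of 0.05. These were 25.0% and 10.0%, beside 12.3% and 12.7% of all genes. The alpha globin gene Hba-a1 and the anion exchanger gene Slc4a1 were higher on both backgrounds. Hba-a1 read 6.25 units in the double mutant array and 0.243 in the JAK2V617F array, with 17.5 in TET2KD and 1.16 in WT. Slc4a1 read 3.84 units in the double mutant array and 0.166 in the JAK2V617F array, 23.1-fold higher, with 4.51 in TET2KD and 0.191 in WT. The beta globin gene Hbb-bt, named after its value was seen, read 5.18 units in the double mutant array and 9.81 in the JAK2V617F array and so did not follow the alpha globin. The globin genes of a kind are near copies, so their probes may share targets. Epb42, a protein of the red cell skeleton, read 0.145 and 0.593 units, 4.08-fold lower. Of the 19 genes of haem synthesis and iron uptake, none was at least 2-fold higher. At least 2-fold lower were 4 (21.1%, beside 12.7% of all genes), Fech, Cpox, Slc25a38 and Urod. Fech, which inserts iron into the ring, read 0.244 and 0.636 units, and Urod, an earlier enzyme of the pathway, 1.68 and 3.56 units. Klf1, the master factor of red cells, read 0.181 and 0.155 units, close to the floor in both arrays.

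Receptors for cytokines differed gene by gene. Of 31 compared, 8 were at least 2-fold higher and 4 at least 2-fold lower, with a median of -0.06. These were 25.8% and 12.9%, beside 12.3% and 12.7% of all genes. Il6st, which encodes gp130, the signalling chain shared by receptors of the interleukin-6 family, read 10.5 units in the double mutant array and 2.87 in the JAK2V617F array, 3.65-fold higher, and 1.31 in TET2KD and 3.98 in WT. Il10ra, a chain of the interleukin-10 receptor, read 2.58 units in the double mutant array and 0.309 in the JAK2V617F array, 8.35-fold higher. Its partner chain Il10rb and the interleukin-13 receptor chain Il13ra1 had signal over background in the double mutant array but not in the JAK2V617F array, at 0.737 and 0.85 units. The interleukin-33 receptor Il1rl1 was the reverse, with 0.798 units in the JAK2V617F array and no signal above background in the double mutant array. Csf3r, the receptor for G-CSF, read 281 units in the double mutant array and 294 in the JAK2V617F array, and Epor, the erythropoietin receptor, 0.209 and 0.187 units; both are named as receptors that signal through JAK2.

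Genes of the JAK and STAT pathway were mostly level. Of 19 compared, none was at least 2-fold higher and 2 were at least 2-fold lower, Pias2 and Jak1. Pias2, an inhibitor of STAT activity, read 0.81 units in the double mutant array and 5.87 in the JAK2V617F array, 7.25-fold lower. Jak1 read 1.67 and 3.47 units, 2.09-fold lower. Among 26 genes that STAT5 is known to switch on or that limit its signal, 2 were at least 2-fold higher and 6 at least 2-fold lower. These were 7.69% and 23.1%, beside 12.3% and 12.7% of all genes, and the median was -0.27. Cish, a feedback inhibitor, read 0.943 units in the double mutant array and 2.65 in the JAK2V617F array, 2.81-fold lower. Pim3, a survival kinase, read 1.3 and 4.78 units, 3.67-fold lower, and Osm, the cytokine oncostatin M, read 0.388 and 2.16 units, 5.57-fold lower. Socs1, another feedback inhibitor, had signal over background in the double mutant array but not in the JAK2V617F array, at 0.364 units, at least 3.38-fold higher. Socs2, chosen after its value was seen, stood at 1.34 units in the double mutant array and 2.26 in the JAK2V617F array, against 0.184 in TET2KD, where 1 of its 3 probes was above background, and none above background in WT. Bcl2l1, the survival gene encoding BCL-XL, averaged 2.29 and 1.04 units, but its 2 probes gave -1.77 and 4.06 on the log2 scale and so opposed each other; its brightest probe was the lower one.

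**Figure D3:**
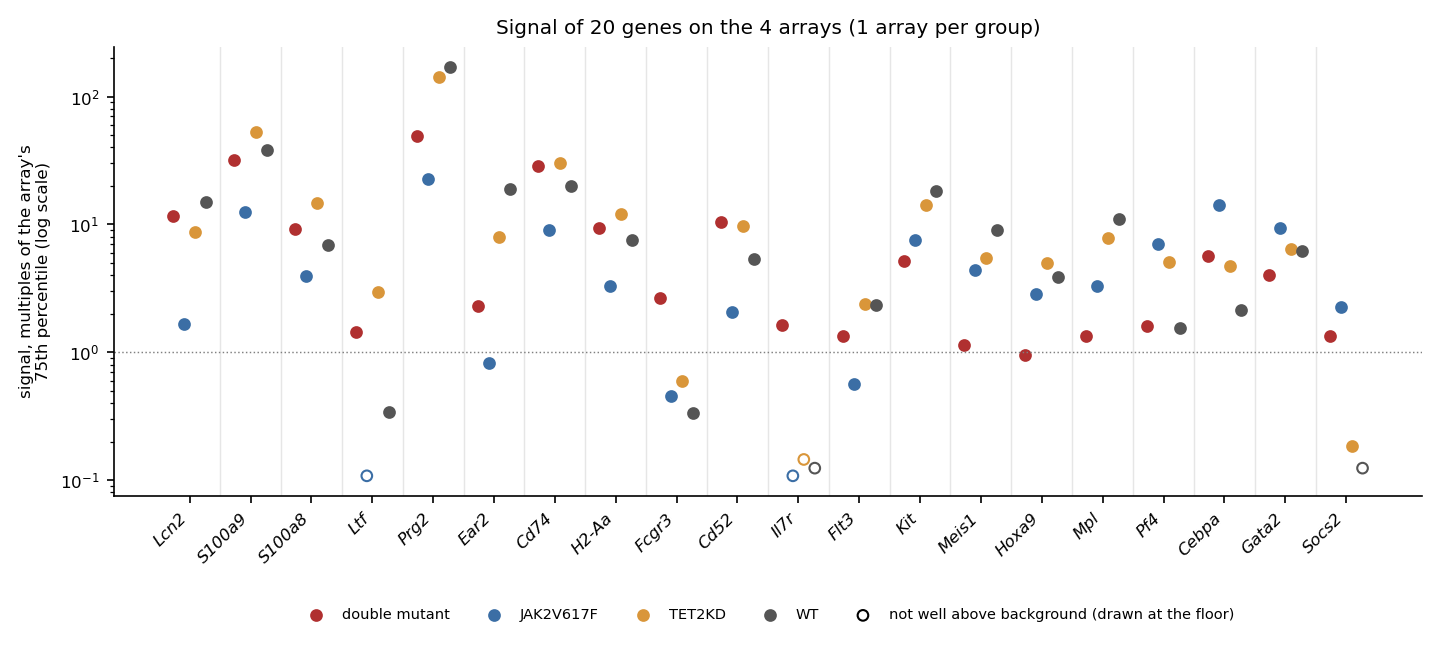
Signal of 20 genes (horizontal axis) on the 4 arrays, in multiples of the array's 75th percentile on a log axis, with 1 array per group. Points from left to right are double mutant, JAK2V617F, TET2KD and WT, and open circles were not well above background; Prg2 reads 49.0 units in the double mutant array and 22.6 in JAK2V617F.

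Inflammatory genes were higher in part, and interferon genes were 2-fold apart about as often as all genes. Of 29 cytokine and NF-kB genes, 7 were at least 2-fold higher and 2 at least 2-fold lower, with a median of 0.44. These were 24.1% and 6.9%, beside 12.3% and 12.7% of all genes. The chemokine Ccl9 read 16.6 units in the double mutant array and 6.77 in the JAK2V617F array, 2.46-fold higher, and Nfkbiz, an inducible regulator of NF-kB target genes, 9.71 and 3.9 units, 2.49-fold higher. Ccl5, a chemokine that attracts T cells, read 3.33 and 1.26 units, 2.65-fold higher. Rela, the NF-kB subunit p65, was the other way, with 4.86 units in the double mutant array and 10.7 in the JAK2V617F array, 2.2-fold lower; it was chosen after its value was seen. Of 30 interferon response genes, 3 were at least 2-fold higher and 3 at least 2-fold lower (10.0% each way, beside 12.3% and 12.7% of all genes, with a median of 0.24). Rtp4 read 5.31 and 0.738 units and Irf7, a factor that amplifies the interferon response, 0.512 and 0.13 units, while Xaf1 read 0.41 units in the double mutant array, with 1 of its 2 probes on the floor, and 1.1 in the JAK2V617F array. Of 26 immediate early genes, none was at least 2-fold higher and 4 were at least 2-fold lower (15.4%, near the 12.7% of all genes). Egr2, a growth-induced factor, read 0.915 and 3.6 units, 3.93-fold lower.

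Adhesion and homing genes included a pair of chains that form 1 receptor. Of 25 compared, 4 were at least 2-fold higher and 3 at least 2-fold lower (the higher ones 16.0%, near the 12.3% of all genes, and the lower ones below the 12.7% of all), with a median of 0.29. Itgal, the alpha chain of the integrin LFA-1, read 4.59 units in the double mutant array and 11.6 in the JAK2V617F array, 2.53-fold lower on average, with -1.41 and -1.27 on its 2 probes. Its partner Itgb2 read 6.38 and 16.1 units, 2.52-fold lower. In TET2KD against WT both chains differed the other way, with 4.95 and 1.34 units for Itgal and 12.9 and 5.68 for Itgb2. S1pr3, a receptor for sphingosine-1-phosphate, read 8.95 units in the double mutant array and 2.14 in the JAK2V617F array, 4.19-fold higher. Ptger4, a prostaglandin E2 receptor, read 2.65 and 0.512 units, 5.18-fold higher. Tgfbr3, a coreceptor for TGF-beta, was lower on both backgrounds, with 0.252 units in the double mutant array and 3.15 in the JAK2V617F array, and 0.458 in TET2KD and 3.07 in WT.

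Genes of replication, of the respiratory chain and of cytosolic ribosomes differed little. Of 40 S phase and replication genes none was at least 2-fold higher and 1 was at least 2-fold lower, Gmnn, an inhibitor of replication licensing, with 1.33 units in the double mutant array and 3.21 in the JAK2V617F array. Of 37 genes of G2 and mitosis, 2 were at least 2-fold higher and 6 at least 2-fold lower, with a median of -0.02. These were 5.41% and 16.2%, beside 12.3% and 12.7% of all genes. Cdc20, which activates the anaphase-promoting complex, read 2.6 and 7.97 units, 3.07-fold lower, and Spc24, a kinetochore protein, 7.95 and 3.15 units, 2.52-fold higher. None of 42 respiratory chain genes and none of 74 cytosolic ribosomal protein genes was 2-fold apart in either direction, with medians of -0.12 and -0.11. In TET2KD against WT 10 of 42 respiratory chain genes were at least 2-fold lower and none at least 2-fold higher. Of all genes compared there, 17.5% were at least 2-fold lower and 15.9% at least 2-fold higher. Of 24 p53 target genes, 2 were at least 2-fold higher (8.33%) and 4 at least 2-fold lower (16.7%), with a median of -0.38. Tigar, a phosphatase that slows glycolysis, read 2.68 units in the double mutant array over 2 probes and was not well above background in the JAK2V617F array on either, at least 24.9-fold higher.

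Genes that write, read or remove cytosine methylation were level. Of 25 compared, 1 was at least 2-fold higher and 1 at least 2-fold lower, with a median of -0.17. Tet1, a relative of TET2, read 1.31 units in the double mutant array and 0.728 in the JAK2V617F array, less than 2-fold apart. Cxxc5, a CpG-binding protein, was the higher one, with 0.708 and 0.263 units, and Ogt, a sugar transferase that binds TET proteins, the lower one, with 0.144 units in the double mutant array, where 1 of its 2 probes was on the floor, and 0.481 in the JAK2V617F array. Of 30 Polycomb genes, 4 were at least 2-fold higher (13.3%, near the 12.3% of all genes) and none at least 2-fold lower. Of these 4, Phf19, Asxl3 and Phf1 had signal over background in the double mutant array but not in the JAK2V617F array, at 0.555, 0.445 and 0.295 units. Ezh2, the histone methyltransferase of the complex, read 1.72 and 0.954 units, less than 2-fold apart.

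Bright genes, chosen after the spread by level had been seen, were the 1570 genes that reached 8 units in 1 array and were measured on every probe in both. Of these, 40 were at least 2-fold higher in the double mutant array (2.55%) and 59 at least 2-fold lower (3.76%). Those higher included several already described: Lcn2, S100a9, S100a8, Prg2, Cd74, H2-Aa, Fcer1g, Mef2c, Il6st, S1pr3, Ccl9 and Nfkbiz. Cd52, a small surface glycoprotein of leukocytes, read 10.4 units in the double mutant array and 2.05 in the JAK2V617F array, 5.05-fold higher. Ifngr2, a chain of the interferon gamma receptor, read 9.79 units in the double mutant array and 3.69 in the JAK2V617F array, 2.65-fold higher. Idi1, an enzyme of isoprenoid and cholesterol synthesis, read 18.9 and 5.55 units, 3.41-fold higher, while Pmvk, an earlier enzyme of the same pathway, was 2.68-fold lower at 4.44 and 11.9 units. Hexa, a lysosomal hexosaminidase chain, read 14.5 and 5.39 units, 2.68-fold higher. Kmt2a, the histone methyltransferase MLL1, read 12.9 and 5.9 units, 2.19-fold higher. Those lower included Cebpa, Gata2, Itgal, Itgb2, Rela and the linker histone gene H1f2, which read 3.78 units in the double mutant array and 10.9 in the JAK2V617F array, 2.87-fold lower. Cetn2, a centrosome protein, read 4.67 and 19.1 units, 4.1-fold lower. Foxo3, a transcription factor that protects stem cells, read 6.79 and 13.7 units, 2.02-fold lower, against 19.5 in TET2KD and 26 in WT.

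Few genes with distant probes were 2-fold apart on all of them. Of 2157 genes with probes at least 500 bases apart and all measured in both arrays, 18 were at least 2-fold higher and 35 at least 2-fold lower on every probe, while 470 and 554 were so on at least 1 probe and 88 had probes in both directions. Elp4, a subunit of the Elongator complex that modifies transfer RNA, read 1.54 units in the double mutant array and 0.166 in the JAK2V617F array, with 3.18 and 3.24 on its 2 probes on the log2 scale. Ttyh2, of the tweety family of membrane proteins, read 0.972 and 0.182 units, with 2.38 and 2.46. Eef2k, the kinase that slows translation elongation, read 1.37 and 0.367 units over 3 probes that ran from 1.15 to 2.35. Ncoa3, a coactivator of nuclear receptors, read 2.48 and 1.03 units, 2.4-fold higher. In the other direction Hpse, heparanase, read 0.176 units in the double mutant array and 1.5 in the JAK2V617F array, 8.52-fold lower, and was below background in both other arrays. Dctd, which makes precursors of thymidine, read 0.587 and 2.93 units, 4.99-fold lower, and Hdac8, a histone deacetylase, 0.348 and 1.52 units, 4.36-fold lower. Yaf2, a component of a variant Polycomb complex, read 0.284 and 1.38 units, 4.84-fold lower. The others named by the same rule were Cipc, Ypel3, Vasn, Rngtt, Zzz3, Snx27, Phka2 and Capn5 (higher) and Ccdc66, Tmem68, Coq8a, Vps13b, Zfp866, Tasor and Dlgap5 (lower).

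The widest differences came from dim genes. Ace, angiotensin-converting enzyme, read 2.12 units in the double mutant array and 0.171 in the JAK2V617F array, 12.4-fold higher. Itfg2 read 1.8 and 0.119 units, 15.1-fold higher, and Mpp7, a scaffold of cell junctions, 3.13 and 0.239 units, 13.1-fold higher. Pou6f1, a POU domain transcription factor, was 19.3-fold lower at 0.217 and 4.19 units, and Egr4, of the early growth response family, 13.3-fold lower at 0.256 and 3.41 units. Each rested on 1 probe. Genes above background in the double mutant array but not in the JAK2V617F array included Dusp22, a phosphatase of the JNK pathway, at 4.28 units (at least 39.8-fold higher), and Gpr107, at 3.18 units (at least 29.6-fold). Genes above background in the JAK2V617F array but not in the double mutant array included the nuclear pore gene Nup214 at 2.77 units (at least 25.3-fold lower) and the phosphatase inhibitor Ppp1r1a at 2.59 units (at least 23.7-fold lower).

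The difference with JAK2V617F was set beside that without it, double mutant against JAK2V617F and TET2KD against WT, which share no array. Over 13231 genes compared on both backgrounds, Pearson's r of the log2 differences across genes was 0.024 and Spearman's rho 0.025. Over 1536 bright genes they were 0.051 and 0.066. Genes are not independent replicates, and the 4 arrays were scanned on the same slide, so these are descriptions only. At least 2-fold higher signals on both backgrounds were found for 342 genes, or 2.58% of those compared. They are 22.8% of the genes higher with JAK2V617F, beside 15.2% of all genes higher without it, and 17.0% of the genes higher without it, beside 11.3% of all genes higher with it. At least 2-fold lower signals on both were found for 375 genes (2.83%). They are 24.2% of the genes lower with JAK2V617F, beside 16.9% of all genes lower without it, and 16.7% of the genes lower without it, beside 11.7% of all genes lower with it. Opposite directions were found for 706 genes, nearly as many as the 717 with the same one. Of the 1497 genes higher with JAK2V617F, 361 were at least 2-fold lower without it and 342 at least 2-fold higher. Of the 1549 lower with JAK2V617F, 345 were at least 2-fold higher without it and 375 at least 2-fold lower. The overlap was thus about as large in opposite directions, and the shares above do not show agreement between the backgrounds. Of the 23 neutrophil genes compared on both backgrounds, 7 were at least 2-fold higher on both, beside 2.58% of all genes, 2 were 2-fold apart in opposite directions and 7 had opposite signs. Chil3, a chitinase-like protein of myeloid cells, read 3.32 units in the double mutant array and 0.547 in JAK2V617F, with 5.2 in TET2KD and 0.816 in WT. Bace1, a membrane protease, read 5.65 and 1.47 units, with 9.42 in TET2KD and 0.41 in WT. Sec14l1 read 2.82 and 0.236 units on the first background and 3.58 and 0.286 on the second, knock-down first. The genes lower on both included Sema4b, a semaphorin, with 0.502 units in the double mutant array, 5.33 in JAK2V617F, 1.33 in TET2KD and 8.9 in WT. Slx4, a scaffold of DNA repair nucleases, read 0.459 and 4.43 units with JAK2V617F and 0.405 and 2.33 without it. Slc2a9, a urate transporter, read 0.166 and 1.07 units and 0.191 and 3.56 in the same order.

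**Figure D4:**
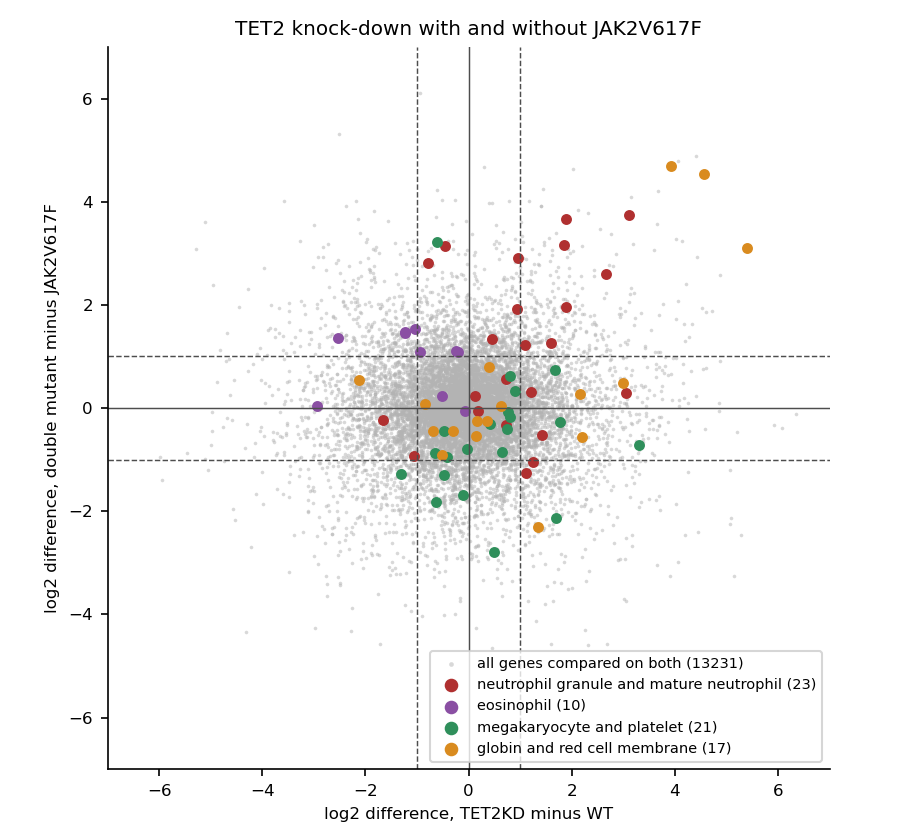
Log2 difference of double mutant minus JAK2V617F (vertical axis) against TET2KD minus WT (horizontal axis) for 13231 genes (grey), with members of 4 lists in colour and dashed lines at 2-fold. The grey cloud has no slope (Pearson's r 0.024), neutrophil genes lie mostly in the upper right, and eosinophil genes mostly in the upper left.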

How the data were processed

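Total RNA of sorted LSK cells was amplified, labelled with Cy3 and hybridised to 4 one-colour Agilent arrays, 1 per group, all on 1 slide in 1 scan session. Per the file headers, the authors' spot intensities were extracted with Agilent Feature Extraction 10.7.3.1, with probe positions on mm9. The deposited processed intensity was used: control spots and outlier spots (162 to 199 per array) were left out, log2 was taken, and each array's 75th percentile was subtracted. The deposited series values are log2 of the same intensities minus a constant per array, with column medians of -2.64 to -2.60, and their direction and scale were checked against the scanner values; they served as an alternative.

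A probe was compared when 1 or both of the arrays read it well above background. A probe not well above background was set to its own signal or the array's floor, whichever was higher. Spots of a probe, then probes of a gene, were averaged on the log2 scale. Probes were named through RefSeq accession (28354), symbol (3190) or synonym (271), and 23866 of 55681 stayed unnamed. Work used Python 3.11.15, numpy 2.4.6, pandas 2.3.3, matplotlib 3.10.9, R 4.3.3 and limma 3.58.1 (normexp with offset 50, cyclic loess). The procedure was tested on simulated data. Values of a few genes are not reported here.

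The 47 gene lists and the comparison itself were chosen with earlier results of these data known, and the bright genes after their spread was seen. Named genes were Tet2 and Jak2, up to 6 members of each list by size of difference and those that define its cell type, genes concordant over distant probes, genes below background in 1 array, genes past 2-fold on both backgrounds, and the largest differences. With 1 array per group, called means at least 2-fold, and no p-value, interval or SE is given; the number of arrays limits the precision. Alternatives were normexp, quantile, median and loess scaling, a stricter dim-probe filter and none, the brightest probe for each gene, a 3-fold limit and the series values.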

Additional observations from a re-analysis of the deposited data

Results flagged for a closer look

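In all, 2 gene lists and 46 of the genes named here differed in opposite directions on the 2 backgrounds, the lists by their medians and the genes by at least 2-fold each way. The difference between backgrounds was not tested, since each group is 1 array. The values are log2 differences, first double mutant minus JAK2V617F and then TET2KD minus WT. The megakaryocyte and platelet list had medians of -0.72 and 0.57, though only 10 of its 21 members compared on both backgrounds had opposite signs. The eosinophil list had medians of 1.10 and -0.99, and 9 of its 10 members had opposite signs.

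Of the 46 genes, 18 were higher in the double mutant array and lower in TET2KD. Those of blood and immune cells were Cst7 (1.1 and -2.0), Ly86 (1.76 and -2.62), Ear1 (1.46 and -1.24), Ear2 (1.47 and -1.23), Satb1 (1.69 and -1.27), Il6st (1.87 and -1.6), Il10rb (2.78 and -1.08), Ifngr2 (1.41 and -2.07) and Nfam1 (2.74 and -2.32). The others were Tbc1d2b (3.54 and -3.0), Lrrc75a (2.71 and -3.96), Zfand2a (2.86 and -2.53), Trappc8 (2.46 and -2.41), Elp4 (3.21 and -2.0), Phka2 (1.62 and -1.42), Cxxc5 (1.43 and -1.41), Ace (3.63 and -1.57) and Dusp22 (5.31 and -2.51).

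The other 28 were lower in the double mutant array and higher in TET2KD. Those of blood and immune cells were Cebpa (-1.32 and 1.13), Pf4 (-2.14 and 1.7), Itgal (-1.34 and 1.89), Itgb2 (-1.33 and 1.19), Pglyrp1 (-1.26 and 1.12), Cd177 (-1.04 and 1.25), Pax5 (-1.58 and 1.61), Ltb (-2.08 and 1.79), Cd28 (-2.74 and 2.25), H2-DMb1 (-1.48 and 1.38), Tap1 (-2.39 and 1.12) and Xaf1 (-1.43 and 1.55). Genes of signalling and early response were Pim3 (-1.87 and 1.09), Egr2 (-1.98 and 3.71), Egr4 (-3.73 and 3.04), Rapgef3 (-2.42 and 2.47) and Ppp1r1a (-4.57 and 2.69). Genes of haem synthesis were Urod (-1.08 and 2.72) and Slc25a38 (-1.21 and 1.81). The rest were the copper transporter gene Atp7a (-3.7 and 3.02), Pcyt1a (-2.67 and 3.18), Clp1 (-2.61 and 2.83), Hsdl1 (-2.51 and 3.06), Hdac8 (-2.12 and 5.09), Zfp866 (-2.03 and 1.16), Vps13b (-1.74 and 1.06), H1f2 (-1.52 and 1.5) and Dlgap5 (-1.46 and 1.78). In 35 of the 46 genes every probe compared in a pair of arrays was above background in both arrays of that pair. In the other 11 a probe lay on the floor in at least 1 array, so these sizes are partly set by the floor. The 2 pairs did not always use the same probes. Of the 2 probes of Elp4 and of Hdac8 used in the first pair, 1 was above background in TET2KD and 1 in WT.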

How the results depend on the processing

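The counts changed with the treatment of dim probes, with normexp and with the fold limit. At least 2-fold higher and lower genes numbered 1841 and 1913; they were 483 and 632 with normexp, 1181 and 1256 with only probes above background on both arrays, 2831 and 3127 with no filter and no floor, 796 and 875 at a 3-fold limit, and 40 and 59 among bright genes, a set chosen after the data were seen. Genes with the same and with opposite directions on both backgrounds, 717 and 706, became 156 and 138 with normexp, 381 and 375 with only probes above background on both arrays, and 1278 and 1216 with no filter. Quantile, median and loess scaling, the brightest probe and the series values kept all of these counts within 1.5 times. The share of higher genes among those 2-fold apart ran from 43.3% (normexp) to 49.5% (quantile). Of the 10 list medians of at least 0.5 in size, all kept their sign under every setting tried, but 1, that of the eosinophil list, stayed past 0.5 under all planned ones; 2 did so with normexp. Of 162 named genes 2-fold apart, 114 stayed past 2-fold in the same direction under every planned setting that gave a value. The difference reversed for Phf1 with no filter (-0.03) and for Bcl2l1 with the brightest probe (-1.77). Below about 1 unit the signal over background limits what a 2-fold difference can show. No paired analysis was possible because each group has 1 array. No replicate could be left out for the same reason.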

Other observations

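Probes with no gene name behaved like the named ones. Of 13759 compared, 1884 (13.7%) were at least 2-fold higher in the double mutant array and 1728 (12.6%) at least 2-fold lower. Across 26344 probes, Spearman's rho of the log2 difference with the GC content of the probe was 0.033, and with its position in the transcript -0.026, as descriptions across probes.

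Among the sex-linked genes, the X-linked Xist was lower in both knock-down arrays than in their controls. Xist averaged 0.195 units in the double mutant array, where 1 of its 2 probes was on the floor, and 3.95 in JAK2V617F, with 0.668 in TET2KD and 13.2 in WT. The Y-linked Ddx3y read 0.694 units in the double mutant array and 0.264 in JAK2V617F, and Eif2s3y 0.545 and 0.132 in the same order. Uty, also Y-linked, was not higher in the double mutant array and differed by less than 2-fold. Of the 4 sex-linked genes compared on both backgrounds, 1 was higher on both, 2 were lower on both and 1 had opposite signs. The sex of the donors and recipients is not given in the sources used here, and whether it differed between the arrays was not tested.

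Imprinted growth genes are a group not described above. Of 12 compared, Grb10, an adaptor that dampens insulin signalling, read 0.624 units in the double mutant array and was not well above background in JAK2V617F, and Mest read 0.167 units in the double mutant array and 0.424 in JAK2V617F.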
